A study of Mus musculus with 2 samples.

Results

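Sox9, Sox5, Sox6, Acan, Matn1, Matn3, Matn4, Hapln1, Cnmd and Comp are genes of cartilage formation: a trio of Sox transcription factors and the non-collagen matrix proteins that chondrocytes lay down. They were taken as the genes named alone by a probe set of the array, and all 10 of 10 listed genes had at least 1, of 18193 genes named in this way. Together they had 25 probe sets. Gene expression was measured in the interdigital tissue (the ID2 and ID3 regions in the labels' protocol) of mouse hind limbs at E13.5, in mid-gestation. The comparison asks which transcripts differ between wild-type and webbed limbs when the tissue between the digits is due to regress. The wild-type group was B6, and the other group was homozygous for Hammer toe, a mutation that leaves the digits webbed; neither group carries a transgene or treatment in the labels. The design text lists 15 embryos per genotype, as 3 sets of 5 littermates, whereas each genotype has 1 Affymetrix array; whether embryos were pooled on it is not given in the sources used here. The strain of the Hammer toe embryos is not given in the labels, so strain and genotype cannot be told apart.

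Cartilage begins as condensations of mesenchyme in which Sox9 is switched on; Sox9 is required for these condensations and binds enhancers of the cartilage matrix genes. Sox5 and Sox6, which lack an activation domain of their own, bind beside Sox9 and strengthen its effect on the same enhancers. The matrix genes follow as chondrocytes differentiate and mature. In the limb at this stage the digit condensations lie directly beside the interdigital mesenchyme.

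Each value below is an intensity on the linear scale as deposited. Both arrays had been scaled to a trimmed mean of 500.003, and their medians were 77.8 (wild type) and 78.3 (Hammer toe). An intensity of 78.1, the median of all values of both arrays, was set as a floor, and any lower value was replaced by it; log2 ratios are of Hammer toe to wild type. A probe set counted as measured when its brighter array passed the floor, and where the other array did not, its ratio is a bound and the difference may be larger. With 1 array per genotype there are no replicates, no error between samples and no test, and genes are described by size at 1.5-fold and 2-fold. As a yardstick, the log2 ratios of probe sets for one gene had an SD of 0.21 among themselves, over 5134 genes. Each ratio was also placed among the 1000 measured probe sets of other genes nearest in mean intensity, which describes how far it lies from most transcripts of like signal. The number of arrays limits the precision.

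The Sox trio and most of the matrix genes were lower in Hammer toe. Of the 25 probe sets, 21 were measured, 18 of them on both arrays and 3 only through the wild-type array, so these 3 could only come out lower. The direction was lower for 20 and higher for 1, the probe set of Acan, where 49.8% of all 20995 measured probe sets were lower. At 1.5-fold or more, 8 were lower, against 1.75% of all measured probe sets, and at 2-fold or more 2 were lower, against 0.191%. None was higher by 1.5-fold, a size that 2.15% of all reached. The median log2 ratio of the 21 was -0.45, and that of all measured probe sets was 0.00. The 4 others were under the floor on both arrays. With each gene taken from the probe set of highest mean intensity, 9 of the 10 genes were measured and Comp was not. Of these 9, 8 were lower, against 48.3% of 11621 measured genes, and 2 were lower by 1.5-fold or more, against 1.39%. Among the 8, Matn1 was measured only through the wild-type array, so it could only come out lower. With Matn1 at its bound, none of the 9 was lower by 2-fold, which 0.112% of genes were, or higher by 1.5-fold, which 2.17% were. Their median log2 ratio was -0.29, and that of all measured genes 0.01.

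**Figure D1:**
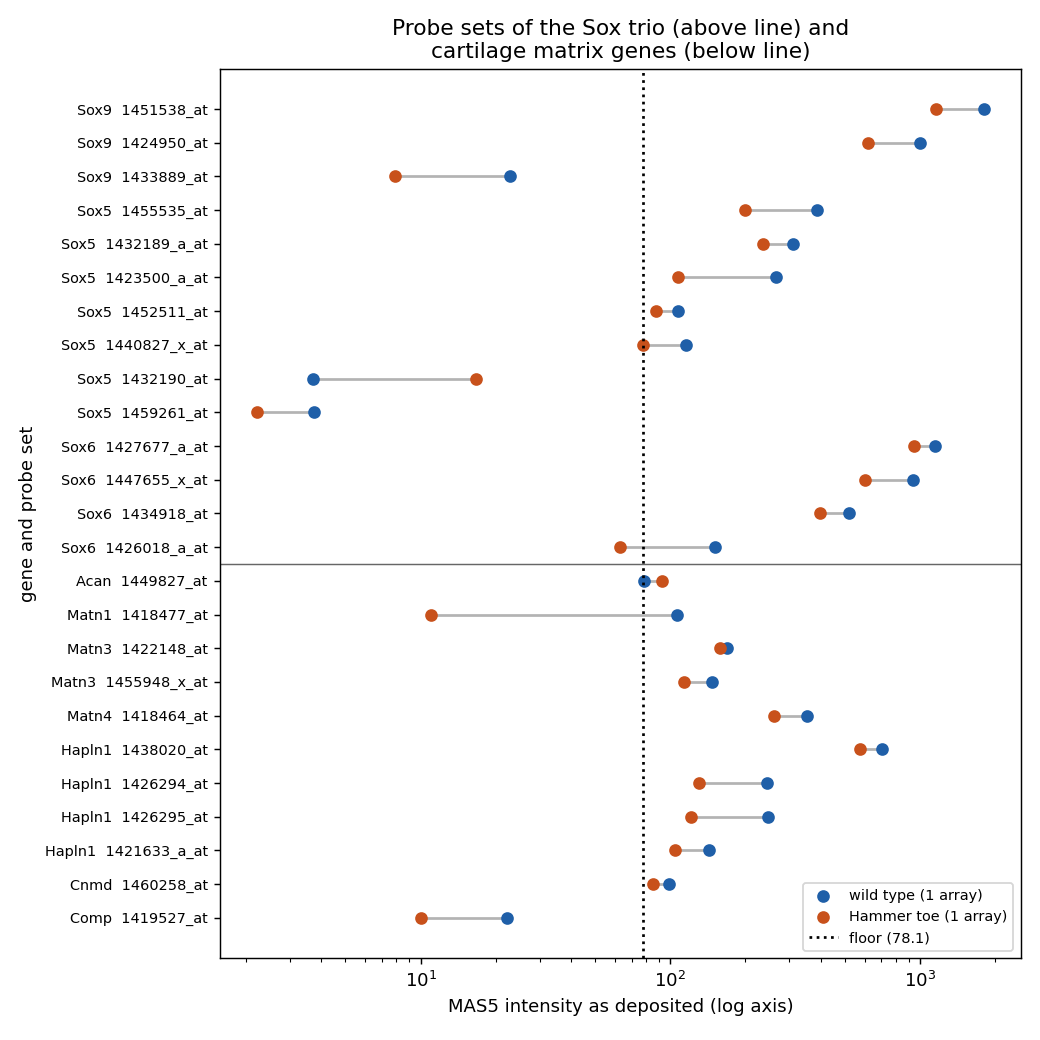
Deposited intensity of each of the 25 probe sets in wild type (blue) and Hammer toe (orange), 1 array each, on a log axis, with the floor of 78.1 as a dotted line. The Hammer toe point lies left of the wild-type point for every measured probe set except that of Acan; levels of different probe sets are not comparable.

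Sox9, the factor that chondrocyte identity depends on, was lower on both of its measured probe sets by closely similar amounts, as were all probe sets in 26.2% of the 3203 genes with exactly 2 measured. Probe set 1451538_at gave 1807 on the wild-type array and 1161 on the Hammer toe array, a log2 ratio of -0.64 or 1.56-fold lower. Probe set 1424950_at read 997 and 617, a log2 ratio of -0.69 or 1.61-fold lower. In this range most transcripts hardly differed: 95% of genes whose brighter array read over 1000 lay within 1.24-fold, and 95% of those between 500 and 1000, where the second probe set falls, within 1.37-fold. Only 0.2% and 0.3% of the probe sets of like intensity had a lower ratio than these. The third probe set, 1433889_at, read 22.7 and 7.93, under the floor on both arrays, and gives no ratio.

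Sox5, a partner of Sox9, was lower on all 5 of its measured probe sets, though by unequal amounts. All probe sets were lower in 9.01% of the 233 genes with exactly 5 measured. Its brightest, 1455535_at, gave 387 on the wild-type array and 199 on the Hammer toe array, 1.94-fold lower with a log2 ratio of -0.96. Probe set 1423500_a_at read 264 and 108, 2.45-fold lower with a log2 ratio of -1.29, the lowest among member probe sets that passed the floor in both samples. For both of these, 0.1% of the probe sets of like intensity were lower still. Probe set 1432189_a_at stood nearer to wild type, at 309 and 236 with a log2 ratio of -0.39. Probe set 1452511_at read 108 and 87.6, a log2 ratio of -0.30 that 27.4% of its neighbours in intensity lay below. Probe set 1440827_x_at read 116 and 77.8, just under the floor, a ratio of at least 1.48-fold lower. The 4 probe sets that passed the floor in both samples had an SD of 0.47 on the log2 scale, against 0.21 for probe sets of one gene. That 0.21 covers all intensities above the floor, and ratios scatter more at weak signal. Of genes whose brighter array read 200 to 500, 95% lay within 1.51-fold, against 1.24-fold over 1000. The suffix _a_at marks probe sets that read several transcripts of a gene, and _x_at those that can bind related sequences; which Sox5 transcripts each reads is not given in the files used here. The remaining probe sets, 1432190_at at 3.70 and 16.7 and 1459261_at at 3.74 and 2.21, were under the floor on both arrays.

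Sox6, the close relative of Sox5, was lower on all 4 of its probe sets, and 11.7% of the 547 genes with exactly 4 measured probe sets were lower on all. The brightest, 1427677_a_at, differed least, at 1152 in wild type and 944 in Hammer toe, a log2 ratio of -0.29. Probe set 1434918_at read 520 and 398, a log2 ratio of -0.38. Larger differences were seen on 1447655_x_at, at 942 and 605 with 1.56-fold lower signal, and on 1426018_a_at, at 150 against 63.0. The last was under the floor in Hammer toe and gives a bound of at least 1.93-fold lower. Sox6 therefore counted as less than 1.5-fold lower on its brightest probe set, while the mean log2 ratio over its probe sets was -0.56. The mean over measured probe sets was -0.66 for Sox9 and -0.70 for Sox5. On this reading the trio lay close together, but the closeness rests in part on bounds. The Sox5 and Sox6 means each include a probe set under the floor in Hammer toe, which could only come out lower. For Sox6 it is 1426018_a_at, whose log2 ratio of -0.95 is the lowest of its 4.

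**Figure D2:**
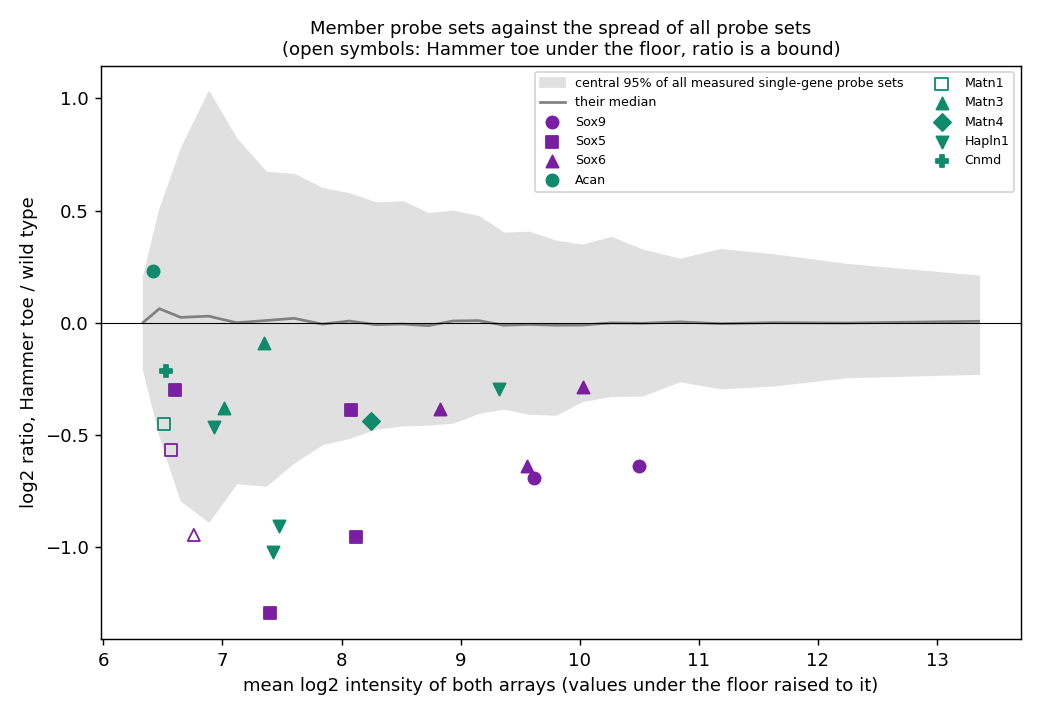
Log2 ratio of each measured member probe set (Sox factors purple, matrix genes green; open symbols are bounds) against mean log2 intensity, with the central 95% of all measured single-gene probe sets in grey. Both Sox9 points, and points of Sox5, Sox6 and Hapln1, lie below the grey band; Acan is the only point above 0.

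Among the matrix genes, Hapln1 showed the largest differences on probe sets read on both arrays. It encodes the link protein that fastens aggrecan to hyaluronan. All 4 of its probe sets were lower. Probe set 1426295_at gave 245 on the wild-type array and 121 on the Hammer toe array, 2.03-fold lower with a log2 ratio of -1.02. Probe set 1426294_at read 244 and 130, 1.87-fold lower with a log2 ratio of -0.91. For these, 0.6% and 0.8% of the probe sets of like intensity had lower ratios. The other probe sets stood nearer to wild type: 1421633_a_at read 144 and 104, a log2 ratio of -0.47. The brightest, 1438020_at, read 708 and 577, 1.23-fold lower with a log2 ratio of -0.29, and 5.9% of its neighbours lay below it. The gene thus read -0.29 on its brightest probe set and -0.67 as the mean over probe sets.

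The matrilins are adaptor proteins that join collagen fibrils and proteoglycans into networks, and the 3 listed members were lower to different degrees. Matn1, expressed in maturing cartilage, gave 107 on the wild-type array and 11.05 on the Hammer toe array with its only probe set. The Hammer toe value was 10.3% of the wild-type value, but it lies far under the floor, so the ratio is a bound of at least 1.37-fold lower. Lowering the floor to the 25th percentile moved the bound to a log2 ratio of -2.43. Matn4 read 354 and 261, 1.36-fold lower with a log2 ratio of -0.44, and 4.3% of the probe sets of like intensity lay below it. Matn3 was nearer to wild type, at 168 and 158.1 on 1422148_at and 147 and 113 on 1455948_x_at, with log2 ratios of -0.09 and -0.38. Among 2070 genes with a brighter value of 200 or less, 95% differed by under 1.60-fold, and both ratios of Matn3 fall inside that range. Matn2, the matrilin that is not among the members, read 133 and 161, a log2 ratio of 0.28.

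Acan, Cnmd and Comp were read weakly or not at all. Acan, the large aggregating proteoglycan that gives cartilage its resistance to compression, gave 78.7 on the wild-type array and 92.4 on the Hammer toe array, a log2 ratio of 0.23. Its wild-type value barely passed the floor, and 78.3% of its neighbours in intensity had lower ratios, so its direction is not set apart from theirs. Cnmd, which encodes chondromodulin, an inhibitor of vessel growth made by cartilage, read 99.3 and 85.5, a log2 ratio of -0.22 that 34.5% of its neighbours lay below. Comp, a thrombospondin-family protein of the cartilage matrix, read 22.2 and 9.999, under the floor on both arrays, and no difference was detectable at this signal.

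Set side by side, the regulators lay further below wild type than the matrix genes in the median, but the ranges overlapped. On the brightest probe sets the median log2 ratio was -0.64 for Sox9, Sox5 and Sox6, with a range of -0.96 to -0.29. It was -0.25 for the 6 measured matrix genes, with a range of -0.45 to 0.23, so the medians differed by -0.38. The low end of that range is the bound of Matn1, which could only come out lower and may lie further down. Without Matn1 the matrix median was -0.22 and the difference -0.42. Sox6 at -0.29 lay inside the range of the matrix genes. Over all measured probe sets, the 11 of the Sox factors had a median of -0.64 with 6 at least 1.5-fold lower. The 10 of the matrix genes had a median of -0.41 with 2 at least 1.5-fold lower, both of Hapln1. Bounds made up 2 of the 11 and 1 of the 10. Hapln1, averaged over its probe sets, lay within the range of the Sox factors averaged in the same way. The matrix genes were also read at signals where ratios scatter more: 3.86% of genes with a brighter value of 200 or less were lower by 1.5-fold or more, against 0.341% of those over 1000. A floor at the 75th percentile left only Sox9, Sox6 and Hapln1, and the difference between the medians was -0.17.

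**Figure D3:**
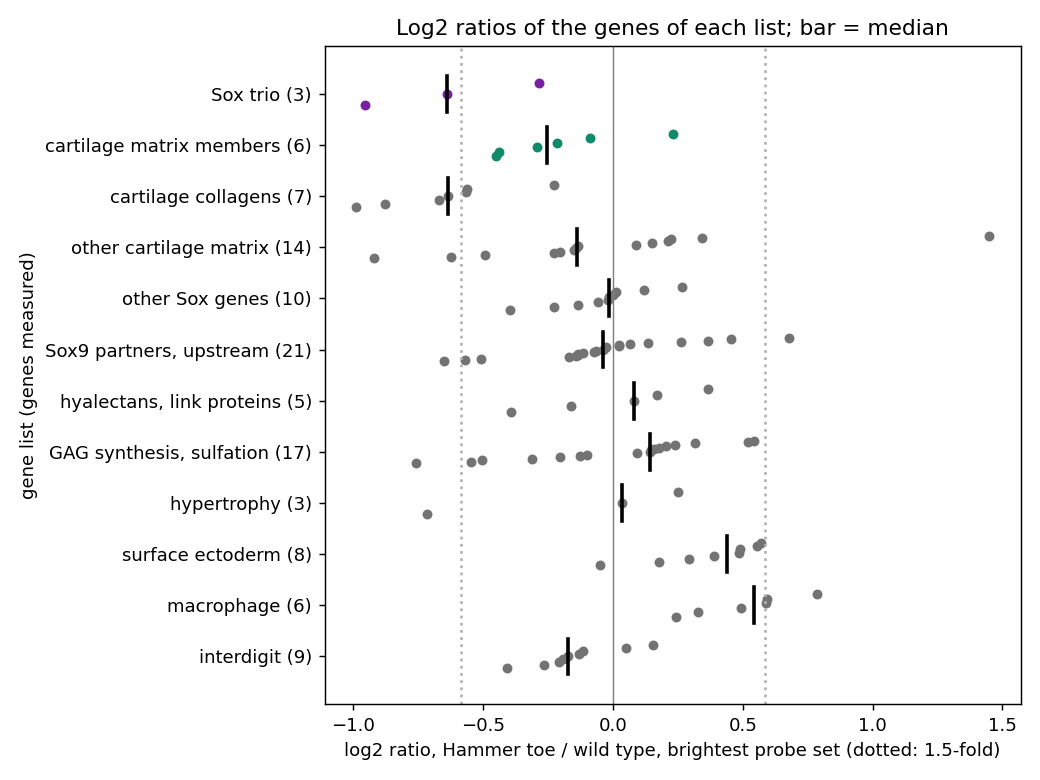
Log2 ratio of each measured gene of the lists, read on its brightest probe set, with the list's median as a bar and 1.5-fold as dotted lines. The Sox trio and the cartilage collagens have medians of -0.64 and -0.64, while the other Sox genes have a median of -0.02.

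Cartilage collagens, the fibril proteins whose genes the Sox trio activates, had the same median as the trio to 2 decimals. All 7 measured were lower and 4 of them by 1.5-fold or more, against 48.3% and 1.39% of 11621 measured genes. The 7 had a median log2 ratio of -0.64 and a range from -0.99 for Col9a3 to -0.23 for Col27a1. Col9a2, a chain of type IX collagen, gave 209 on the wild-type array and 114 on the Hammer toe array, 1.84-fold lower. Col11a2 read 116 and 74.4, at least 1.48-fold lower, and being under the floor in Hammer toe it could only come out lower. Col2a1, Col9a1 and Col11a1 had log2 ratios of -0.67, -0.64 and -0.56. Second probe sets of Col9a1 and Col9a3 were at -0.63 and -1.02. Those of Col11a1 and Col27a1 stood nearer to wild type, at -0.19 and 0.04. Among 21 other cartilage matrix genes 14 were measured, 8 lower and 6 higher, with a median of -0.14. Cytl1, a secreted protein of chondrocytes, read 179 and 94.6, 1.89-fold lower. Chadl, a leucine-rich matrix protein, read 139 and 90.2, 1.54-fold lower. Ogn, a small proteoglycan of many connective tissues, was 2.73-fold higher. Chad, Epyc, Ucma, Snorc, Scrg1, Prg4 and Prelp were under the floor on both arrays.

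Other Sox genes stood near wild type. Of 10 measured, 6 were lower and 4 higher, with a median of -0.02, where 48.3% of all 11621 measured genes were lower. None differed by 1.5-fold, as 1.39% of all measured genes did when lower and 2.17% when higher. Sox10, under the floor in wild type, is counted at its bound and may differ by more. Sox13, of the same subgroup as Sox5 and Sox6, stood furthest from wild type, at 276 in wild type and 210 in Hammer toe with a log2 ratio of -0.40. Sox18, a factor of vessel endothelium, had a log2 ratio of 0.27. Sox8, of the same subgroup as Sox9, read 109 and 118, a log2 ratio of 0.12. Sox4 and Sox11, which are active in limb mesenchyme, had log2 ratios of -0.23 and -0.015.

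Partners and upstream regulators of Sox9 were not lower as a list: of 21 measured, 13 were lower and 8 higher, with a median of -0.04. The share lower among all 11621 measured genes was 48.3%. Arid5a, Runx1 and Barx2, under the floor in Hammer toe, could only come out lower, and Runx3, under it in wild type, only higher. Foxc2, a forkhead factor of skeletal mesenchyme, read 252 and 403, 1.60-fold higher, and Runx1 read 123 and 75.05, a bound of at least 1.57-fold lower. The BMP receptors Bmpr1a and Bmpr1b, which act before the trio in condensations, had log2 ratios of -0.06 and -0.14. Hyalectans, link proteins and hyaluronan genes other than the members had 5 of 9 measured, 2 lower and 3 higher, with a median of 0.08. The 2 lower, Ncan and Hapln3, were under the floor in Hammer toe and could only come out lower. The 3 higher were read on both arrays. Has2, a hyaluronan synthase, was at 0.37 and Hapln3 at a bound of -0.39. The relatives of Comp, Thbs1 and Thbs3, were at -0.16 and -0.34, with Thbs2 and Thbs4 under the floor. The relatives of Cnmd that share its BRICHOS domain, Tnmd, Itm2a, Itm2b and Itm2c, and Bri3, on the same list, were all read higher. So were 6005 of all 11621 measured genes, and the ratios on this list were small, with Itm2c at 0.001. Itm2b was furthest from wild type among the 4 above the floor in both samples, at 0.26, and Tnmd, under the floor in wild type, gives only a bound of 0.01 and could only come out higher.

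Genes that build and sulfate the sugar chains of proteoglycans had a median of 0.14, with 7 of 17 measured genes lower and 10 higher. Of all 11621 measured genes, 48.3% were lower. Papss2, which makes the sulfate donor used in cartilage, read 2041 and 1205, 1.69-fold lower, and all 3 of its measured probe sets were lower, from -0.89 to -0.58, as in 18.0% of genes with exactly 3. The other 16 stayed within 1.5-fold. Of the genes of chondrocyte hypertrophy, the late stage of cartilage growth, 3 of 10 were measured: Pth1r, Mef2c and Fgfr3 had log2 ratios of 0.03, 0.25 and -0.72. A second probe set of Fgfr3 was at 0.39. Ihh, Col10a1, Mmp13, Ibsp and Alpl were under the floor on both arrays.

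Markers of the tissue and of other cell types were read on the same arrays. All 9 interdigit markers were measured, with a median log2 ratio of -0.17; Aldh1a2, which makes retinoic acid between the digits, read 13129 and 11474, and Hoxd13 17291 and 15779. Sums below are over the measured markers of a list, with values under the floor raised to it, wild type first. For the counts of markers, 5616 of all 11621 measured genes were lower and 6005 higher. Joint markers were lower in 3 of 3 measured of 5 listed, with a median of -0.21 and sums of 4251 and 3888. For surface ectoderm, 7 of 8 markers were higher, the median was 0.44, with sums of 10197 and 13055. For macrophages, 6 of 6 markers were higher, the median was 0.54, with sums of 2296 and 3059; Aif1, Mrc1 and C1qa had log2 ratios of 0.79, 0.59 and 0.59. Muscle markers were higher in 3 of 4 measured of 5 listed, with a median of 0.71 and sums of 718 and 1241; the contractile genes Myh3 and Actc1 were 2.13-fold and 1.96-fold higher. Bone markers were higher in 2 of 2 measured of 7 listed, with sums of 660 and 814. These sums were mostly Col1a1, at 0.33 on its brightest probe set. Its second probe set went the other way, at 418 and 347 with a log2 ratio of -0.27. Erythroid markers were lower in 3 of 3 measured of 4 listed, with a median of -0.32. The embryonic globin Hbb-bh1 was 1.77-fold lower on its brightest probe set, with log2 ratios of -1.14 to -0.82 over its 3 probe sets, while the sums of 40120 and 36987 were mostly Hbb-y, at -0.04. Tendon markers were higher in 2 of 3, 1 of them at its bound, with a median of 0.01, although their sums of 1573 and 1465, mostly Mkx, were lower in Hammer toe. Of 4 endothelial markers 3 were lower, their median being -0.07, and the 2 nerve markers measured of 4 listed had sums of 342 and 350. No marker was listed at 0. In dissected tissue, fewer cartilage cells and less RNA per cell cannot be told apart, and the part of the markers in the lower Sox and matrix values was not tested.

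The sequences before the gene starts are shown for Sox5 and Sox6, which were lower together and hold matches to Sox motifs, and for Hapln1 and Matn1, matrix genes that were lower and hold none. They come from RefSeq in GRCm38.p6, run from 250 bases before to 50 after an annotated start, and matched 8 of the 10 genes with 14 starts, of which Sox6 had 6 and Matn4 2; Sox9 and Comp were not matched. Motifs to which Sox factors bind were searched on both strands and are in capitals: the motif ACAAAG, a close relative spelled ACAATG, and another spelled AACAAT, which can overlap ACAATG by 5 bases. At least 1 match was found in 33.2% of all 32851 promoters of this length, and in 6 of the 14, 1 of Sox5 and 5 of Sox6. A match is a description of letters, and which start is used in this tissue was not measured here. Sox5 is at chr6:143947057-143947356 on the minus strand. The Sox6 windows lie on the minus strand at chr7:115824661-115824960 (start A) and chr7:115995037-115995336 (start B). Of the 6 Sox6 starts these hold the most matches, 5 and 4, and each of the others holds 0 or 1. Hapln1 is at chr13:89540386-89540685 and Matn1 at chr4:130944135-130944434, both on the plus strand.
Sox5: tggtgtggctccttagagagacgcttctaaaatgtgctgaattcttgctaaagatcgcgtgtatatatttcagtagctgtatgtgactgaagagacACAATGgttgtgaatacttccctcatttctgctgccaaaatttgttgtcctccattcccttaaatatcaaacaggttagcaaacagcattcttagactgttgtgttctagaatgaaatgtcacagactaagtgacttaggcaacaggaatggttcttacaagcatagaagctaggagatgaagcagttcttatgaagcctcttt
Sox6 start A: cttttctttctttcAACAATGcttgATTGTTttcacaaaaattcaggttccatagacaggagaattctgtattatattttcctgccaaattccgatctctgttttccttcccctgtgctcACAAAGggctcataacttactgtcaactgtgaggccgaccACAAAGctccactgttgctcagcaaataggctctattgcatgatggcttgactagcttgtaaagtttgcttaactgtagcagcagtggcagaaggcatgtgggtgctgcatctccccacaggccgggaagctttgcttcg
Sox6 start B: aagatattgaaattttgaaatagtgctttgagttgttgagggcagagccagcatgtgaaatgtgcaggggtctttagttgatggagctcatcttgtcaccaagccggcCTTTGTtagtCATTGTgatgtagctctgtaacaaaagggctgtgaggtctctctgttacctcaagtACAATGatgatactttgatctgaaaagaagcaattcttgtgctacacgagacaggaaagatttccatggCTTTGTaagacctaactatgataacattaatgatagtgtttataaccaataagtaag
Hapln1: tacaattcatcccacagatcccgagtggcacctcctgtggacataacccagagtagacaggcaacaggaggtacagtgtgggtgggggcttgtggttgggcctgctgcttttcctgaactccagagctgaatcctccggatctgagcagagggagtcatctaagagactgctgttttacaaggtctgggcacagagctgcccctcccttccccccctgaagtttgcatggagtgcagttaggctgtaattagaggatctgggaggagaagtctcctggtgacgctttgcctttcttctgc
Matn1: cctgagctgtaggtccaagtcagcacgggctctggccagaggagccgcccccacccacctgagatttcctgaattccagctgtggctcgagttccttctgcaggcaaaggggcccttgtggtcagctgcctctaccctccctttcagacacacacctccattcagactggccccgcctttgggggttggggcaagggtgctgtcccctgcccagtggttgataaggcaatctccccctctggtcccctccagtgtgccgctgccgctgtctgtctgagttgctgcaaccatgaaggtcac

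Positions count from the start's own base as 0 and give a match's first base. The Sox5 window has 1 match, an ACAATG at -154. Start A of Sox6 has 4 separate sites, among them AACAAT at -236 and its inverted copy on the other strand at -225, at most 10 bases apart. Such an inverted pair, any of the motifs on opposite strands within 10 bases and without overlap, is found in 158 of all promoters, or 0.481%, and in 1 of the 14. Start B of Sox6 also has 4 sites, of which the last, an ACAAAG on the other strand, begins at -7. The windows of Acan, Matn3, Matn4 and Cnmd, like those of Hapln1 and Matn1, have no match, which says only that these letters are not in them.

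**Figure D4:**
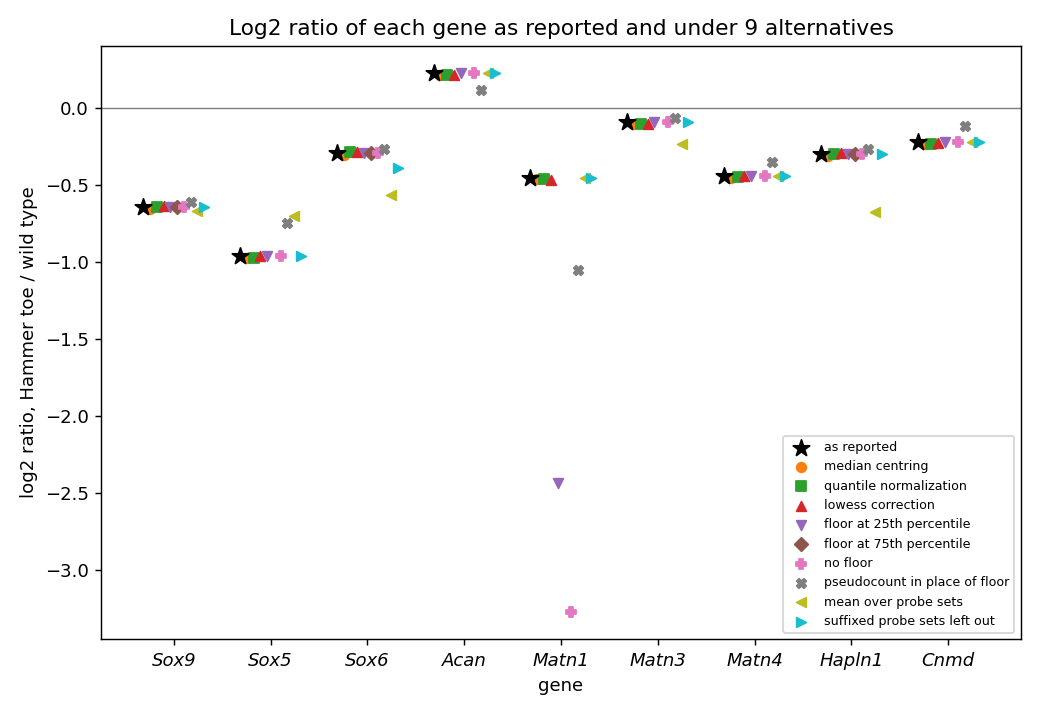
Log2 ratio of each measured gene as reported (star) and under 9 alternative treatments of the arrays, the floor and the probe sets. Of the genes, 8 stay below 0 and Acan above 0 in each alternative that measured them; Matn1 moves most, from -0.45 as a bound to -3.27 without a floor.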

How the data were processed

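The authors deposited 1 intensity per probe set and array; the submitters' processing notes name MAS5 and Affymetrix Expression Console, and the version is not given in the sources used here. Per the labels' protocols, RNA was isolated on RNeasy columns and 250 ng was labelled. MAS5 scales each array, so a shift of most transcripts would not be seen. Of 45101 probe sets, 64 controls were left out; 34945 named 1 gene, 932 several and 9160 none, by GEO's platform annotation updated through the RefSeq gene table. The floor was the median of all non-control values. Ratios, counts and medians were computed in Python 3.11.15 with pandas 2.3.3. Only the call at 1.5-fold was tried on simulated data, with planted log2 ratios of 1.5 or 2 in size. Each gene was represented by the probe set brightest on average. No p-value was computed. All 10 members were named with every probe set; from other lists, up to 4 genes at 1.5-fold or more, or the 2 largest, were named, and for marker lists up to 4 examples, by brightness; further examples, among them the markers named by size, were chosen after their values were seen. The members and lists were chosen with earlier results of these data known. The alternatives tried were quantile normalization, median centring, lowess correction (span 0.3), other floors, no floor, a pseudocount, the mean over probe sets, leaving out suffixed probe sets and leaving out each gene.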

Additional observations from a re-analysis of the deposited data

How the results depend on the processing

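The medians of all members, of the Sox factors and of the matrix genes stayed below 0 in every alternative run, at -0.45 to -0.27, -0.80 to -0.46 and -0.34 to -0.19, and the difference between Sox factors and matrix genes ranged from -0.54 to -0.17. Quantile normalization, median centring and lowess correction left the 20 lower probe sets, the 8 lower genes and the 2 genes at 1.5-fold at the same counts. The floor changed more. With it at the 25th percentile, 1 gene was at least 2-fold lower, where none was as reported. With it at the 75th percentile, which measured fewer probe sets, 6 probe sets and 3 genes were lower, 1 gene was lower by 1.5-fold or more, and the difference between the medians was -0.17. Without a floor, 4 genes were lower by 1.5-fold and 2 by 2-fold. With a pseudocount, 1 gene was lower by 2-fold. No member was higher by 1.5-fold in any of the 9 alternatives. No paired analysis was possible because each genotype has 1 array. Signal near the floor limits Acan, Cnmd, Matn1 and Comp.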

Other observations

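Wwp2, a ubiquitin ligase gene that Sox9 activates in cartilage and that carries the cartilage microRNA miR-140 in an intron, was singled out after its values were seen. All 5 of its measured probe sets were lower in Hammer toe, as in 9.01% of the 233 genes with exactly 5 measured. The weakest of them, under the floor in Hammer toe, could only come out lower. The brightest gave 1181 on the wild-type array and 830 on the Hammer toe array, a log2 ratio of -0.51, and the others ranged from -0.93 to a bound of -0.14. Foxc1, a forkhead factor of skeletal mesenchyme also seen in this way, read 677 and 456, a log2 ratio of -0.57, with -0.52 on its second probe set, while its relative Foxc2 was at 0.68 on its only measured probe set. Without a floor, Comp had a log2 ratio of -1.15, and the weakest probe sets of Sox5 pointed in opposite directions, at 2.17 and -0.76.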
